A study of Mus musculus with 4 samples.

Results

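The gene set described here consists of 39 interferon-induced and major histocompatibility complex (MHC) class I presentation genes, followed across 4 libraries of cultured mouse articular chondrocytes. The genes were taken by symbol from a written list, which was drawn up with earlier results of these data known, and all 39 were found among the 55141 genes that carry both reads and TPM, a length-scaled share of a library's transcripts. Of the 39 genes, 26 had a mean of at least 10 reads over the 4 libraries, as did 9540 genes in all, and these 26 are called the measured members below. The other 13 were too low for a ratio of single genes and are given by their reads.

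Interferons are secreted proteins that bind receptors on neighbouring cells and, through the Jak kinases, switch on transcription factors such as Stat2 and Irf9, which then raise a broad set of antiviral genes. Many of the same genes also serve the display of peptides to T cells, in which the immunoproteasome cuts proteins, the Tap transporter carries peptides into the endoplasmic reticulum, Erap1 trims them, and class I heavy chains present them together with B2m. Chondrocytes are the resident cells of cartilage.

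The study compared chondrocytes that lack the miR-23a and miR-23b clusters, or miR-26a, with wild-type chondrocytes, to look for genes under the control of these miRNAs. All 4 cultures were grown from the femoral heads of 3-week-old mice (strain C57BL/6, for the mimic library C57BL6/J). The conditions were wild type, Cart-miR-23clus KO (Col2a1-cre with both miR-23a/b clusters flanked by loxP sites, so that deletion follows the activity of the collagen II promoter), miR-26a KO (miR-26a -/-), and miR-26a KO transfected with a double-stranded miR-26a mimic. Each condition had 1 library, so the spread between cultures is unknown, no test between conditions was possible, and every interval below covers counting error only. It was not given whether the miR-26a KO library had received a control transfection. The labels call the control library wild type, while the study's methods name mice with floxed clusters as the controls.

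The libraries held between 1328042 and 1498579 reads on genes, so that 0 reads allows a share of up to 0.000200% to 0.000226% of a library. Chondrocyte markers were present: Col2a1 had 35871 reads for wild type, 25154 for Cart-miR-23clus KO, 25740 for miR-26a KO and 28039 with the mimic, and all 8 chondrocyte markers were read in every library. Their sum was lower than in wild type in the other 3 libraries, at 0.778 (0.768 to 0.789), 0.777 (0.767 to 0.788) and 0.788 (0.778 to 0.799) times wild type. Col2a1 gave most of this sum, and in Cart-miR-23clus KO 6 of the 8 markers had an interval below 1, while Comp (1.70, 1.50 to 1.92) and Matn3 (1.38, 1.07 to 1.78), picked after their values were seen, had intervals above 1. The T and NK cell markers found were at 0 in all 4 libraries. Macrophage markers were present, and their 14 genes summed to 1348 reads for wild type, 1378 for Cart-miR-23clus KO, 422 for miR-26a KO and 829 with the mimic. Osteoblast markers summed to 50978, 9168, 21489 and 26395 reads in the same order. In wild type this was close to the chondrocyte sum of 51935, and the osteoblast marker Col1a1, with 39203 reads, exceeded Col2a1. In such bulk cultures, fewer cells of a type and less RNA per cell cannot be told apart. The 5 rows found for genes of the deleted miRNAs held 0 reads in all 4 libraries, wild type included, so these libraries of polyadenylated RNA did not check the knockouts.

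Promoters of interferon-induced genes are known to carry the interferon-stimulated response element, whose core is written here as GAAANNGAAA on either strand. RefSeq promoter windows of GRCm38.p6, which run from 250 bases before to 50 bases after a start site, were given for 32 of the 39 members. The core letters stood in 16 of the 37 member windows (43.2%), against 3.44% of all 32851 windows. The letters TTCNNNGAA, the core of the gamma-activated site, stood in 24.3% of member windows and 8.30% of all. Entries for Usp18, Tap2, Rtp4, Parp9, Ifi27, Parp14 and Iigp1 were not used here. The stretches below show 80 bases before the start site of 5 members, picked among the windows that hold a match to show what it looks like in each role, 1 each for a ubiquitin-like modifier, an RNA-binding effector, the class I light chain and 2 GTPases, with each core match in capitals.
Isg15, chr4:156200819-156200898, minus strand:
Isg15: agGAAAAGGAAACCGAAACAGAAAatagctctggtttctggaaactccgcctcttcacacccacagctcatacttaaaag
Ifit3, chr19:34583369-34583448, plus strand:
Ifit3: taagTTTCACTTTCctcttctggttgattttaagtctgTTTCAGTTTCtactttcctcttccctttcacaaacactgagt
B2m, chr2:122147527-122147606, plus strand:
B2m: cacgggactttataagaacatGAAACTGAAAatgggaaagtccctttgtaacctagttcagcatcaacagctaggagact
Irgm1, chr11:48871421-48871500, minus strand:
Irgm1: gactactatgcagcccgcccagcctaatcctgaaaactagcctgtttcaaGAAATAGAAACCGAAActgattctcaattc
Igtp, chr11:58199476-58199555, plus strand:
Igtp: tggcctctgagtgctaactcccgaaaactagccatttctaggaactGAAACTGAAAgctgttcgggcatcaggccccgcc

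The stretches of Isg15, Irgm1 and Igtp ended at the base before the start site, and those of Ifit3 and B2m lay further upstream. In Isg15, 3 core matches overlapped in a single run, the first at position -78 from the start site. In Ifit3, 2 separate matches stood at -156 and -122 on the opposite strand. The promoters of Psmb9 and Tap1, which face away from each other on chromosome 17, shared 275 of their 300 bases and held no core match. The windows of Samhd1 and H2-K1 held none either, and that of Erap1 held 1.

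**Figure D1:**
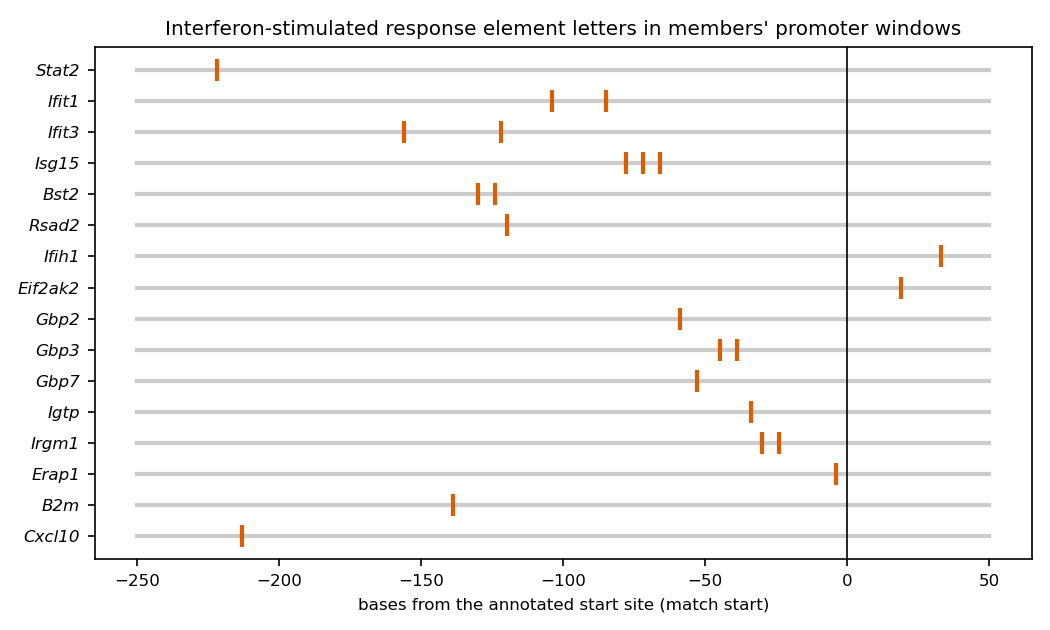
Each grey bar is the promoter window of 1 member (x axis: bases from the annotated start site, which is the vertical line) and each orange tick is the first base of a GAAANNGAAA match on either strand. The 16 members with a match are shown, most ticks lie within the 250 bases before the start, and Isg15 has 3.

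Cart-miR-23clus KO was the library in which most members stood highest. It held the highest TPM of 18 of the 26 measured members (69.2%), while it was the highest library for 25.4% of all 9540 genes. The miR-26a KO library held the lowest TPM of 12 members (46.2%), against 20.3% of all genes, and the mimic library the lowest of 8 (30.8%, against 20.1%). Wild type was highest for 4 members (15.4%, against 26.5% of all genes) and lowest for 5 (19.2%, against 28.4%). Of the 18 members highest in Cart-miR-23clus KO, 3 reached the read minimum only through that library, as given with the counts below. Summed over all 39 members, the reads came to 6142 for wild type, 7103 for Cart-miR-23clus KO, 4989 for miR-26a KO and 5602 with the mimic. Scaled to reads per 1000000 (RPM), these sums were 4099, 5348, 3661 and 3865. B2m gave the most of this sum, and without B2m, H2-K1, H2-D1 and Ifi27 the remaining 35 members gave 703, 1004, 623 and 596 RPM. Cart-miR-23clus KO was thus the highest library with and without the most abundant members.

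**Figure D2:**
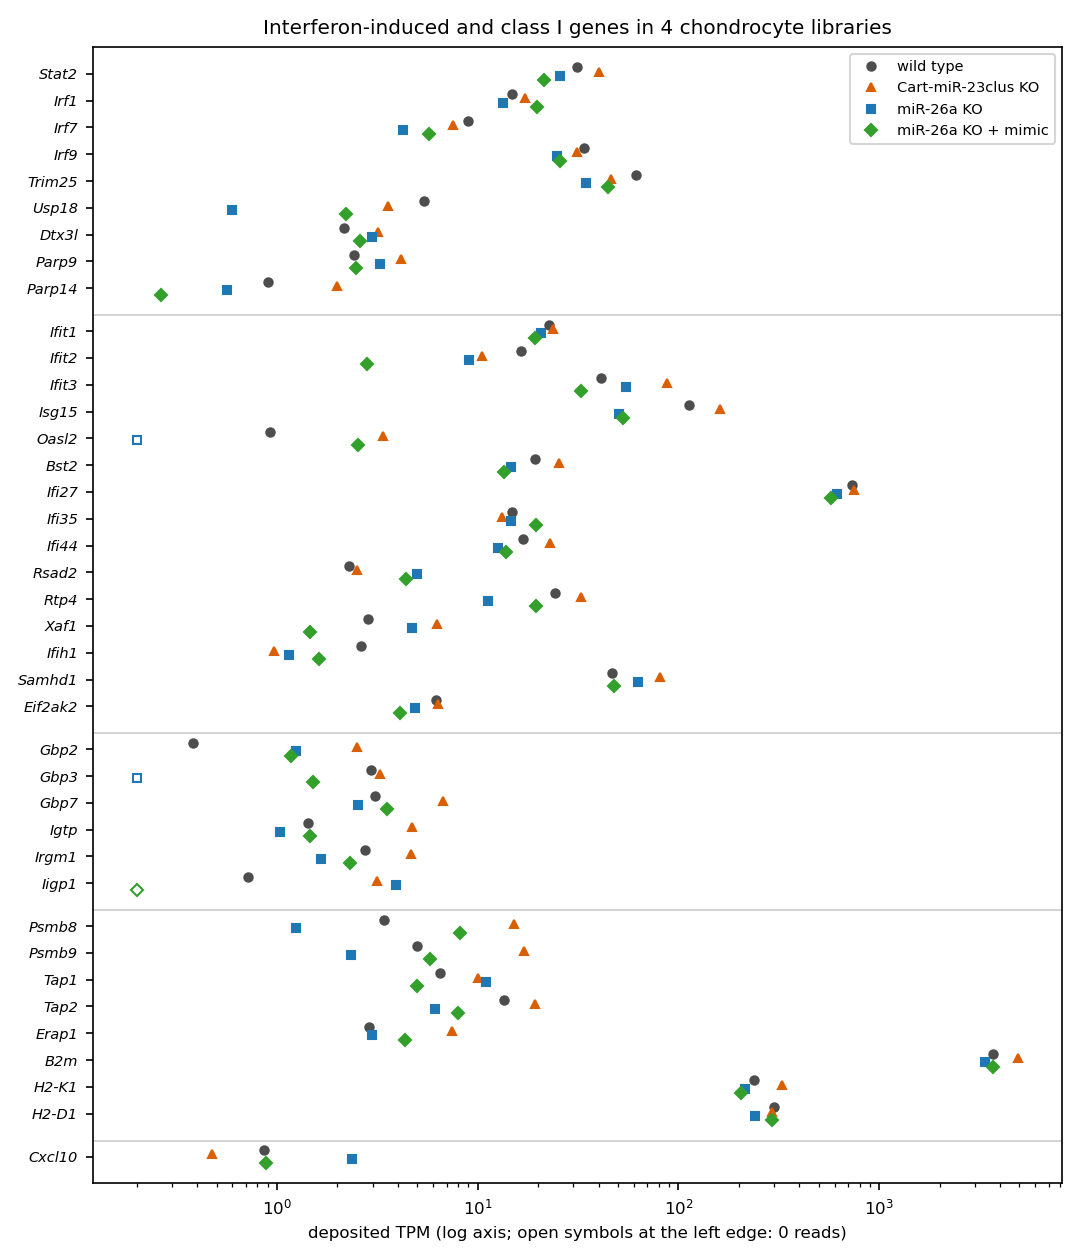
Deposited TPM of each of the 39 members (x axis, log scale) in wild type (grey circles), Cart-miR-23clus KO (orange triangles), miR-26a KO (blue squares) and miR-26a KO with mimic (green diamonds), grouped by role, 1 library each. Cart-miR-23clus KO is the rightmost symbol for Psmb8, Psmb9, Erap1, Ifit3 and Isg15, and open symbols mark genes with 0 reads.

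In antigen processing, Erap1 and Psmb9 were above 2-fold in Cart-miR-23clus KO, where 4.64% of all genes were, and Psmb9 reached the read minimum only through that library (a mean of 6.00 reads over the other 3). Psmb9, a catalytic subunit of the immunoproteasome, had 7 reads for wild type, 22 for Cart-miR-23clus KO, 3 for miR-26a KO and 8 with the mimic (4.96, 17.1, 2.33 and 5.81 TPM). Its TPM ratio between Cart-miR-23clus KO and wild type was 3.46 (95% interval 1.43 to 9.59). Psmb8, its partner subunit, was below the read minimum with 3, 12, 1 and 7 reads. For both subunits Cart-miR-23clus KO was the highest and miR-26a KO the lowest library. Their sum, a grouping made after the values were seen, was 10, 34, 4 and 15 reads, in RPM 3.84 times wild type for Cart-miR-23clus KO (1.85 to 8.71). This sum leaves out the third immunoproteasome subunit, Psmb10, which had 33, 27, 31 and 43 reads and did not share the pattern. Psmb9 lies at chr17:34181987-34187764 on the minus strand of GRCm38, and its exons overlap exons of Tap1 on the plus strand.

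Erap1, the aminopeptidase that trims peptides to the length class I molecules hold, had 17 reads for wild type, 40 for Cart-miR-23clus KO, 16 for miR-26a KO and 25 with the mimic. Cart-miR-23clus KO over wild type gave 2.59 (1.44 to 4.87), and over miR-26a KO 2.51 (1.37 to 4.79). Wild type and miR-26a KO lay together, with a ratio of 1.03 (0.489 to 2.18), and Cart-miR-23clus KO stood above both. Exons of Erap1 overlap exons of Cast on the other strand, and the sources used here did not give whether strand was used in counting.

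The 2 subunits of the peptide transporter differed from each other. Tap2 had 49, 63, 20 and 28 reads, listed as before, so that miR-26a KO stood below wild type, at a ratio of 0.448 (0.252 to 0.768). Tap1 had 20, 28, 31 and 15 reads, with a ratio of miR-26a KO to wild type of 1.70 (0.940 to 3.15), an interval that includes 1. The intervals of the 2 subunits against wild type did not overlap in miR-26a KO. Against miR-26a KO, the mimic library was lower for Tap1, at 0.452 (0.227 to 0.863), and its interval for Tap2 included 1 (1.31, 0.711 to 2.45). Summed, the 5 processing genes Psmb8, Psmb9, Tap1, Tap2 and Erap1 had 96 reads for wild type, 165 for Cart-miR-23clus KO, 71 for miR-26a KO and 83 with the mimic. In RPM, Cart-miR-23clus KO was 1.94 times wild type (1.50 to 2.52), and miR-26a KO was 0.813 times wild type (0.590 to 1.12).

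The class I chains were read deeply enough for narrow intervals, and their differences were small. B2m, the light chain of every class I molecule, had 3304 reads for wild type, 4012 for Cart-miR-23clus KO, 2770 for miR-26a KO and 3221 with the mimic. Its TPM ratio to wild type was 1.34 (1.28 to 1.40) for Cart-miR-23clus KO, 0.921 (0.875 to 0.969) for miR-26a KO, and 1.00 (0.953 to 1.05) with the mimic. H2-K1, a class I heavy chain, had 389, 492, 321 and 330 reads in the same order, which put Cart-miR-23clus KO at 1.39 times wild type (1.22 to 1.59). H2-D1, the other classical heavy chain, had 661, 580, 482 and 622 reads and did not share this pattern. Its ratio was 0.966 (0.863 to 1.08) in Cart-miR-23clus KO, where its interval lay wholly below that of H2-K1, and 0.801 (0.711 to 0.902) in miR-26a KO. Reads of H2-K1 and H2-D1 can fall on near-identical class I genes, so the split between the 2 is uncertain.

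The interferon-induced GTPases, which guard cells against microbes held in vacuoles, were thinly read one by one. Irgm1 was the only one of the 6 with a mean of at least 10 reads, with 11 for wild type, 17 for Cart-miR-23clus KO, 6 for miR-26a KO and 9 with the mimic. Gbp7 had 8, 16, 6 and 9 reads, Igtp had 3, 9, 2 and 3, and Gbp2 had 1, 6, 3 and 3. In these 4 genes Cart-miR-23clus KO was the highest library. Gbp3 had 2 reads or fewer in every library, and Iigp1 had 1, 4, 5 and 0 reads. The 6 genes summed to 26 reads for wild type, 54 for Cart-miR-23clus KO, 22 for miR-26a KO and 25 with the mimic. In RPM the sum was 17.3, 40.7, 16.1 and 17.3, so that Cart-miR-23clus KO was 2.34 times wild type (1.44 to 3.90), while the other 3 libraries lay within each other's intervals. Igtp shares exons with Irgm2 on the same strand, and the Gbp genes resemble each other, so their reads are uncertain gene by gene.

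Among the antiviral effectors, Ifit3, Isg15 and Samhd1 had intervals above 1 in Cart-miR-23clus KO. Ifit3, a member of the family that binds viral RNA, had 75 reads for wild type, 145 for Cart-miR-23clus KO, 91 for miR-26a KO and 58 with the mimic. Its ratio to wild type was 2.13 (1.60 to 2.85) in Cart-miR-23clus KO. Ifit1, of the same family, was level between them, with 63, 60, 52 and 52 reads and a ratio of 1.05 (0.724 to 1.52), the interval wholly below that of Ifit3. Ifit3 has a near-identical copy, Ifit3b, which had 22, 28, 20 and 22 reads, and reads may be split between the copies.

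Isg15, a ubiquitin-like protein that is joined to other proteins in the interferon response, had 83 reads for wild type, 108 for Cart-miR-23clus KO, 34 for miR-26a KO and 38 with the mimic (113, 162, 50.8 and 53.1 TPM). Both libraries from miR-26a -/- cells were thus the low ones, and the mimic library over miR-26a KO gave 1.04, with an interval that includes 1 (0.640 to 1.71). Cart-miR-23clus KO was 1.43 times wild type (1.07 to 1.93), and miR-26a KO was 0.450 times wild type (0.293 to 0.678). Samhd1, which breaks down the nucleotides that viruses need, had 192, 302, 234 and 192 reads. It was above wild type both for Cart-miR-23clus KO (1.73, 1.44 to 2.09) and for miR-26a KO (1.34, 1.10 to 1.63), and the mimic library was below miR-26a KO (0.767, 0.630 to 0.932). Isg15 and Samhd1 therefore stood on opposite sides of wild type in miR-26a KO.

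Rtp4, an interferon-induced chaperone-like protein, had 47 reads for wild type, 58 for Cart-miR-23clus KO, 20 for miR-26a KO and 37 with the mimic. The ratio of miR-26a KO to wild type was 0.467 (0.262 to 0.804). Ifi27, a protein of mitochondrial and nuclear membranes, had 734, 686, 567 and 565 reads, and miR-26a KO was 0.848 times wild type (0.759 to 0.948). For both genes the 2 libraries from miR-26a -/- cells lay below the other 2. Rsad2, the antiviral enzyme viperin, went the other way, with 9, 9, 18 and 17 reads, and its ratio of 2.20 in miR-26a KO had an interval that includes 1 (0.937 to 5.55).

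The remaining measured effectors had intervals that include 1 in all 3 comparisons. Ifi44, induced by interferon and of unclear molecular role, had 51, 63, 35 and 41 reads, Eif2ak2, the kinase PKR that halts translation on sensing double-stranded RNA, had 28, 26, 20 and 18, and Bst2, which tethers viruses to the cell surface, had 16, 19, 11 and 11. Ifi35 had 21, 17, 19 and 27 reads. The highest library for Ifi35 was the mimic library and for the other 3 Cart-miR-23clus KO. Below the minimum, Ifit2 had 12, 7, 6 and 2 reads, Oasl2 had 3, 10, 0 and 8, Xaf1 had between 1 and 4, and the RNA sensor Ifih1 had 15, 5, 6 and 9.

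The regulators, which transmit or shape the signal, were level as a sum between wild type and Cart-miR-23clus KO, while single genes went both ways. Their 9 genes summed to 313 reads for wild type, 280 for Cart-miR-23clus KO, 202 for miR-26a KO and 243 with the mimic. In RPM, Cart-miR-23clus KO was 1.01 times wild type (0.856 to 1.19), and miR-26a KO was 0.710 times wild type (0.592 to 0.850). The effector sum was 1.27 times wild type in Cart-miR-23clus KO (1.18 to 1.37), and the intervals of effectors and regulators overlapped. Irf9 and Trim25 gave most of the regulators' reads. Gene by gene, 4 of the 7 measured regulators were higher in Cart-miR-23clus KO and 3 lower, with a median ratio of 1.17, and for the 11 measured effectors the median was 1.31.

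Within the regulators, Irf9, the DNA-binding partner of Stat2, had 105 reads for wild type, 88 for Cart-miR-23clus KO, 70 for miR-26a KO and 77 with the mimic. Trim25, a ubiquitin ligase of RNA sensing, had 92, 63, 47 and 65 reads, and its ratio of miR-26a KO to wild type, 0.561 (0.386 to 0.806), was the only one of the 7 measured regulators with an interval that leaves out 1 in the 3 comparisons. Both were highest in wild type and lowest in miR-26a KO. Stat2 had 24, 28, 18 and 16 reads, and Irf1, which drives class I genes, had 33, 35, 27 and 43. Irf7, the amplifier of interferon production, had 21, 16, 9 and 13 reads, and miR-26a KO over wild type gave 0.471 with an interval that includes 1 (0.190 to 1.07). The pair Dtx3l and Parp9, a ubiquitin ligase and its partner, was lowest in wild type, with 12, 16, 15 and 14 reads and with 9, 14, 11 and 9 reads. Exons of Irf9 overlap Rnf31 on the same strand, so a share of its reads is uncertain. Of the regulators below the minimum, Usp18, which removes Isg15 from proteins and dampens the receptor, had 10, 6, 1 and 4 reads. Parp14 had 7, 14, 4 and 2 reads. The single chemokine of the set, Cxcl10, had between 1 and 5 reads in each library.

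**Figure D3:**
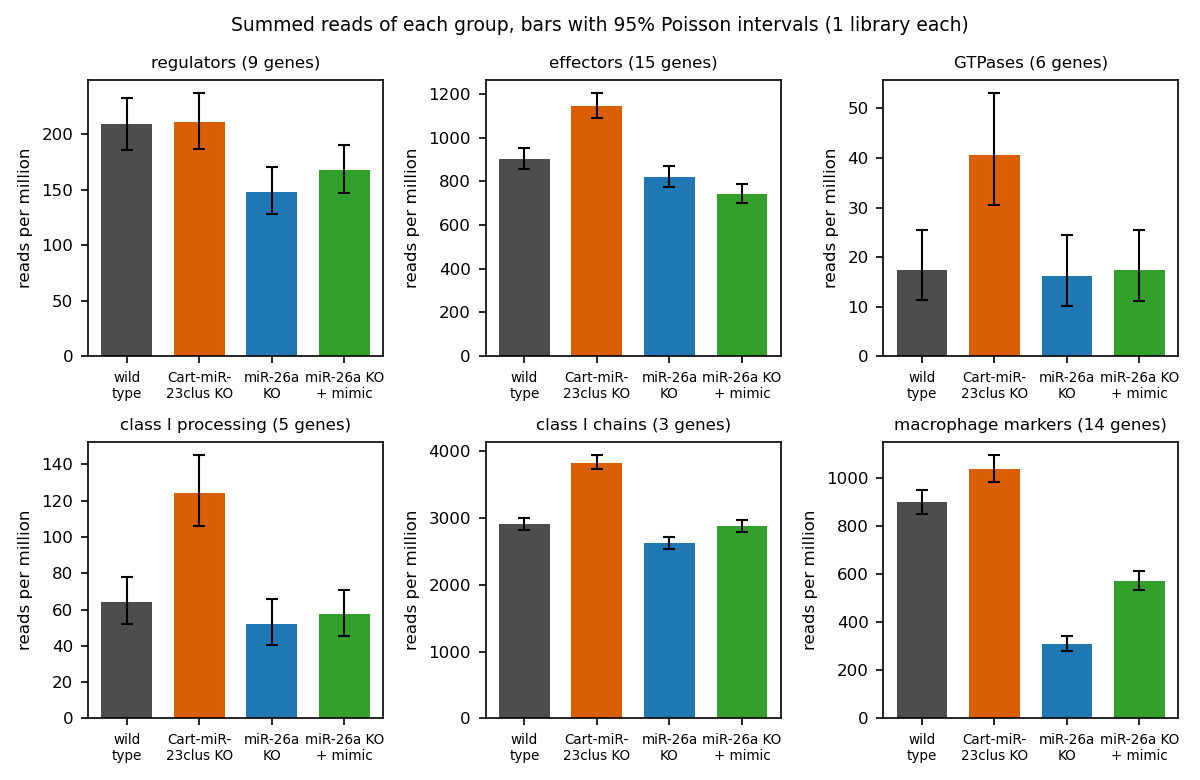
RPM (y axis, from 0) summed over the genes of each group in the 4 libraries, with 95% Poisson intervals as error bars and 1 library per bar. Cart-miR-23clus KO is the highest bar for effectors, GTPases, class I processing and class I chains, regulators of wild type are level with those of Cart-miR-23clus KO, and macrophage markers are lowest in miR-26a KO (310 RPM).

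Counted gene by gene against wild type, 21 of the 26 measured members had a higher TPM in Cart-miR-23clus KO and 5 a lower one, with a median ratio of 1.35 beside 0.985 over all 9540 genes. A ratio above 2 was seen for 3 members, Ifit3, Erap1 and Psmb9 (11.5%, with 4.64% of all genes), and for none was it below 0.5 (4.33% of all genes). The interval lay wholly above 1 for 7 members (26.9%, with 11.7% of all genes): B2m, H2-K1, Erap1, Psmb9, Ifit3, Isg15 and Samhd1. No member had an interval wholly below 1, which 12.2% of all genes had. Psmb9, Irgm1 and Parp9 reached the minimum of 10 reads only through Cart-miR-23clus KO, their highest library, with means of 6.00, 8.67 and 9.67 reads over the other 3, so that their place in these counts is no independent support. Leaving out genes of this kind, a rule chosen after the values were seen, 2 of 23 members were above 2 (8.70%, with 4.06% of 9162 genes) and 6 had an interval above 1 (26.1%, with 11.7%). The osteoblast markers were lower in the same comparison, at 0.203 times wild type (0.198 to 0.208) as a sum, and the macrophage markers were 1.15 times wild type (1.07 to 1.24), with 9 of 12 measured markers higher. Of these, Csf1r and Adgre1, both at 1.98 and picked after their values were seen, had intervals above 1, and Lyz2, the most abundant, was at 0.979 (0.878 to 1.09). The part of these other cell types in the result was not tested.

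Set against miR-26a KO instead of wild type, Cart-miR-23clus KO was higher for 23 of the 26 measured members, with a median log2 ratio of 0.48 beside -0.05 over all genes. Its ratio was above 2 for 6 members (23.1%, with 3.85% of all genes) and below 0.5 for none (3.67%). The interval lay above 1 for 13 of the 26 members (with 8.05% of all genes) and below 1 for none (10.8%). Psmb9 and Irgm1, which reached the read minimum only through Cart-miR-23clus KO, are among both the 6 and the 13, and without such genes 4 of 23 members were above 2 (17.4%, with 3.36% of 9162 genes) and 11 had an interval above 1 (47.8%, with 8.03%). Isg15, Tap2 and Rtp4 had ratios of 3.18 (2.15 to 4.83), 3.16 (1.88 to 5.51) and 2.91 (1.72 to 5.10). Between these 2 libraries the macrophage sum differed by a ratio of 3.35 (3.00 to 3.75), and its part in the result was not tested. This comparison shares the Cart-miR-23clus KO library with the one against wild type, and the 2 are not independent.

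In miR-26a KO the members leaned the other way. Of the 26, 19 had a lower and 7 a higher TPM than in wild type, with a median ratio of 0.836 beside 1.02 over all genes. A ratio below 0.5 was seen for 5 members, Irf7, Isg15, Rtp4, Tap2 and Psmb9 (19.2%, with 3.27% of all genes), and a ratio above 2 for Rsad2 (3.85%, with 4.06% of all genes). The intervals of Irf7 and Psmb9 include 1, and Psmb9 passed the read minimum only through Cart-miR-23clus KO. Without genes that pass only through their highest library, 4 of 23 members were below 0.5 (17.4%, with 2.70% of 9162 genes). The interval lay below 1 for 7 members, B2m, H2-D1, Ifi27, Isg15, Rtp4, Tap2 and Trim25 (26.9%, with 8.42% of all genes), and above 1 for Samhd1 (3.85%, with 11.1% of all genes). Macrophage markers were lower in the same library. All 12 measured markers lay below wild type, each with its interval below 1, and the sum was 0.344 times wild type (0.308 to 0.384), with Lyz2 at 712 and 222 reads and Csf1r at 80 and 45. None of the 14 was at 0 in any library. The osteoblast sum was 0.464 times wild type (0.456 to 0.471) and the chondrocyte sum 0.777 times wild type (0.767 to 0.788). The part of these cell types in the lower members was not tested. Both this comparison and that of Cart-miR-23clus KO used the 1 wild-type library, so a value of that library moves both.

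Transfection of the miR-26a mimic into miR-26a KO chondrocytes went with few differences in these genes. Of the 26 members, 14 were higher and 12 lower with the mimic, and the median ratio was 1.04 beside 0.998 over all genes. A ratio above 2 was seen for Psmb9 alone (3 and 8 reads), which passed the read minimum only through Cart-miR-23clus KO. One below 0.5 was seen for Tap1 alone. Each was 3.85% of the members, with 1.98% of all genes above 2 and 1.51% below 0.5. The interval lay above 1 for B2m (1.09, 1.03 to 1.14) and H2-D1 (1.21, 1.07 to 1.36), a share of 7.69% with 4.96% of all genes. It lay below 1 for Ifit3 (0.596, 0.421 to 0.837), Samhd1 and Tap1, a share of 11.5% with 5.06% of all genes. The macrophage sum was 1.85 times higher with the mimic (1.64 to 2.08), and all 12 measured markers were higher. Its part was not tested, and an effect of transfection as such cannot be told apart from one of miR-26a here.

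**Figure D4:**
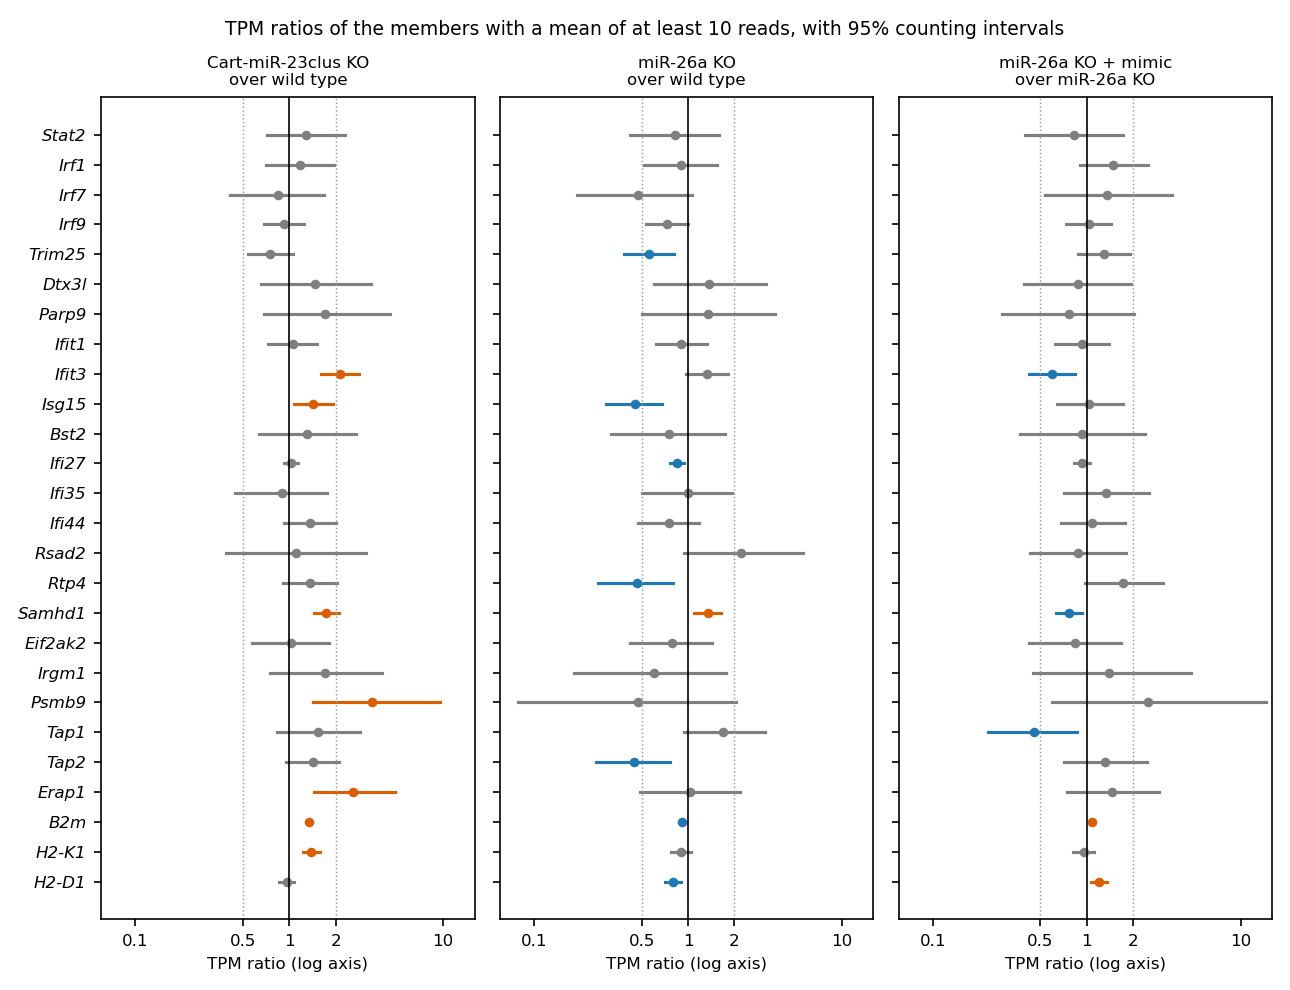
TPM ratios (x axis, log scale) of the 26 members with a mean of at least 10 reads, for Cart-miR-23clus KO over wild type, miR-26a KO over wild type and mimic over miR-26a KO, with 95% counting intervals as lines and dotted lines at 0.5 and 2. Orange marks intervals above 1 (7, 1 and 2 members) and blue intervals below 1 (0, 7 and 3 members).

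The signal upstream of these genes was looked for in the rest of the pathway. Where 4 values follow each other, here and elsewhere, they stand in the order wild type, then Cart-miR-23clus KO, then miR-26a KO, then the mimic library. Of the 20 interferon ligand genes, none had a read in wild type or miR-26a KO, and 1 gene had 1 read in each of the other 2 libraries, so a ligand made in these cultures was not detectable at this depth. All 9 receptor chains and kinases had reads in every library. Jak1, the kinase shared by all interferon receptors, had 396, 508, 434 and 420 reads, and was higher than wild type both for Cart-miR-23clus KO (1.41, 1.24 to 1.61) and for miR-26a KO (1.20, 1.05 to 1.38). Ifngr1, the ligand-binding chain of the interferon gamma receptor, had 39, 57, 42 and 53 reads, which put Cart-miR-23clus KO at 1.61 times wild type (1.05 to 2.48). Il10rb, which serves the interferon lambda receptor, had 10, 13, 23 and 15 reads, and stood 2.53 times above wild type for miR-26a KO (1.16 to 5.95). For the other receptors and kinases measured, Ifnar2, Ifngr2, Jak2 and Tyk2, the intervals in the 3 comparisons included 1, while Ifnar1 had 10, 5, 9 and 8 reads and Ifnlr1 had 2, 4, 6 and 3.

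The sensors of foreign nucleic acid and their adaptors showed no interval apart from 1 among the 10 measured, in any of the 3 comparisons, with Ddx58, the sensor RIG-I, at 57, 65, 54 and 57 reads. Of all genes, 11.7% were above 1 and 12.2% below for Cart-miR-23clus KO. The shares were 11.1% and 8.42% for miR-26a KO, and 4.96% and 5.06% with the mimic. Of 6 measured genes listed as negative regulators, 2 were higher and 4 lower in Cart-miR-23clus KO, with a median ratio of 0.866. Only Socs3 had an interval above 1 there (16.7%, with 11.7% of all genes) and none had one below (12.2%). Socs3, which blocks Jak kinases after cytokine signals, had 58 reads for wild type, 144 for Cart-miR-23clus KO, 72 for miR-26a KO and 111 with the mimic. It was 2.73 times wild type in Cart-miR-23clus KO (2.00 to 3.77) and 1.44 times miR-26a KO with the mimic (1.06 to 1.97). Socs1, its relative with the same action on interferon signals, had 19, 14, 10 and 13 reads, and its intervals included 1. The list also held Isg20, which is an antiviral RNA exonuclease and not a negative regulator by that role. It had 144, 121, 126 and 97 reads and the mimic library was below miR-26a KO (0.719, 0.546 to 0.945). With the mimic, 1 of the 6 thus had an interval above 1 (16.7%, with 4.96% of all genes) and 1 below (16.7%, with 5.06%).

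A further 24 interferon-induced genes, listed beside the members and measured, had median ratios to wild type of 1.15 for Cart-miR-23clus KO and 0.945 for miR-26a KO, and 1.06 with the mimic to miR-26a KO. In Cart-miR-23clus KO, 17 of the 24 were higher (70.8%), beside 48.2% of all genes, 6 had an interval above 1 (25.0%, with 11.7% of all genes) and none one below (12.2%). Ratios above 2 (12.5%, with 4.64% of all genes) were those of Trim30a (5 and 29 reads, 6.39, 2.44 to 21.1), Apol9a (4 and 15 reads, 4.13, 1.32 to 17.1) and Lgals9 (7 and 16 reads, 2.52, 0.980 to 7.23). Trim30a and Apol9a passed the minimum only through Cart-miR-23clus KO, with means of 4.00 and 8.33 reads over the other 3 libraries. Without genes that pass only through their highest library, 1 of 20 was above 2 (5.00%, with 4.06% of 9162 genes), a share near that of all genes. In this set 4 of 20 had an interval above 1 (20.0%, with 11.7%). Ifitm3, which blocks the entry of viruses at membranes, had 350, 624, 351 and 440 reads, with wild type and miR-26a KO level and Cart-miR-23clus KO at 1.96 times wild type (1.72 to 2.24). In miR-26a KO, Irgm2, a GTPase of the same family as Irgm1, had 3 reads against 17 in wild type (0.194, 0.0364 to 0.670), and with the mimic 12 (3.74 times miR-26a KO, 1.01 to 20.6). Lgals3bp, a secreted glycoprotein, had 400, 491, 268 and 325 reads, and was lower in miR-26a KO (0.736, 0.628 to 0.861). Nmi, Ifi27l2a and Trim30a also had ratios below 0.5 in miR-26a KO, on 14 reads or fewer, with intervals that include 1. These 3 genes pass the read minimum only through their highest library. With Irgm2, 4 of the 24 were below 0.5 (16.7%, with 3.27% of all genes), and 2 had an interval below 1 (8.33%, with 8.42%). Ly6a, a surface antigen of stem and stromal cells, went the other way, with 55, 77, 119 and 127 reads and a ratio of 2.38 in miR-26a KO (1.71 to 3.33), and Apol9a and Lgals9 were above 2 there on 15 reads or fewer. These 3 of 24 above 2 were 12.5%, with 4.06% of all genes, and Apol9a passed the read minimum only through Cart-miR-23clus KO. Ly6a alone had an interval above 1 (4.17%, with 11.1% of all genes).

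Of 13 further genes of the class I pathway that were measured, 5 had an interval above 1 (38.5%, with 11.7% of all genes) and 1 below (7.69%, with 12.2%) in Cart-miR-23clus KO. For miR-26a KO, 4 were above (30.8%, with 11.1%) and 1 below (7.69%, with 8.42%). Tapbp, tapasin, which bridges class I molecules to Tap, had 142 reads for wild type, 256 for Cart-miR-23clus KO, 217 for miR-26a KO and 219 with the mimic, with ratios to wild type of 1.98 (1.61 to 2.45) and 1.68 (1.35 to 2.09). Tapbpl, its relative that edits peptides, had 10, 27, 24 and 27 reads, with ratios of 2.97 (1.39 to 6.88) and 2.64 (1.21 to 6.18). Pdia3, the disulphide isomerase of the complex, had 289, 411, 390 and 415 reads, with ratios of 1.57 (1.34 to 1.83) and 1.48 (1.27 to 1.73). For these 3 genes, wild type was the low library and both knockouts lay together above it, unlike Psmb9 and Erap1, for which miR-26a KO was at or below wild type. The chaperone Calr had ratios of 1.21 (1.13 to 1.29) and 1.17 (1.09 to 1.25) in the 2 knockouts, and Hspa5 had 1.06 (1.01 to 1.11) and 0.928 (0.885 to 0.974). Of the proteasome subunits, the third immunoproteasome subunit Psmb10 had 33, 27, 31 and 43 reads and a ratio of 0.901 in Cart-miR-23clus KO, with an interval (0.521 to 1.54) that includes 1 and overlaps that of Psmb9. Psmb7 was lower in Cart-miR-23clus KO (0.765, 0.585 to 0.997), and 3 of the 13 genes had an interval above 1 with the mimic over miR-26a KO (23.1%, with 4.96% of all genes), Psmb5 (1.81, 1.26 to 2.63), Canx (1.14, 1.02 to 1.28) and Hspa5 (1.08, 1.03 to 1.13).

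The miRNAs removed in these mice act through bases 2 to 8, the seed, which pairs with the 3′ untranslated region (UTR) of an mRNA. Their mature sequences from RefSeq (GRCm38.p6) are printed to show the seeds searched, in capitals. miR-27a-3p (chr8:84208727-84208747) and miR-27b-3p (chr13:63300760-63300780) share a seed, miR-23a-3p lies at chr8:84208563-84208583, and miR-24-3p and miR-26a-5p are each made from 2 loci, miR-24-3p at chr8:84208875-84208896 and chr13:63301251-63301272, and miR-26a-5p at chr9:119031811-119031832 and chr10:126995543-126995564. All are on the plus strand. The guide strand of the mimic equals miR-26a-5p base by base. miR-23b-3p was not used here.
miR-23a-3p: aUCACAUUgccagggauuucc
miR-24-3p: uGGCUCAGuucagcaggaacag
miR-27a-3p: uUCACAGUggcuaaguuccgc
miR-27b-3p: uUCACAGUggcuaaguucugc
miR-26a mimic, guide strand: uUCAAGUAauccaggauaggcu
miR-26a-5p: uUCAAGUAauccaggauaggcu

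A match to the miR-26a seed, TACTTGA in the DNA letters of the UTR, stood in the longest annotated 3′ UTR of 3 of the 39 members, Parp14, Ifih1 and Erap1 (7.69%), against 12.8% of 9109 measured genes with a UTR of at least 50 bases. The miR-23 match AATGTGA stood in 8 members (20.5%, all genes 18.2%), the miR-27 match ACTGTGA in 8 (20.5%, all genes 19.6%) and the miR-24 match CTGAGCC in 6 (15.4%, all genes 21.5%). The UTRs of the members were shorter, with a median of 944 bases against 1462. Of the 7 measured members with an interval above 1 in Cart-miR-23clus KO, 4 held a match to the miR-23, miR-27 or miR-24 seed, as did 12 of all 26 measured members (46.2%) and 44.7% of all 9109 genes, namely Psmb9 and H2-K1 for miR-23, and Ifit3 and Erap1 for miR-27, while Isg15, Samhd1 and B2m held none. The 12 measured members with a match to any of the 3 seeds had a median log2 ratio of 0.42 to wild type, and the 14 without one had 0.43. Over all genes the medians were -0.01 with and -0.03 without a match. A match is a description of letters, not a site shown to act.

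The promoter letters were read against the same ratios. The 10 measured members with a core match had a median log2 ratio of 0.40 for Cart-miR-23clus KO over wild type, and all 10 were higher. The 12 with a window and no match had a median of 0.33, with 7 higher and 5 lower, and Psmb9 among these 12 passed in the same way as Irgm1. In miR-26a KO the medians were -0.21 and -0.24. These are descriptions of small sets, with no test.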

How the data were processed

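Reads came from QuantSeq 3′ mRNA (FWD) libraries of cultured articular chondrocytes, 1 per condition, mapped to mm10 (GRCm38.p6) per the submitters' processing notes. Aligner, counter and use of strand were not given in the sources used here. The authors deposited TPM for 4 libraries, a share of each library after division by a gene's length, and reads per gene for 3. The deposited reads were handled under the unit of estimated counts because a percentage stands below the genes in that table, and they were made by counting mapped reads per gene. Since 3′ tags do not grow with transcript length, TPM levels are not compared between genes. Below the genes stood 6 summary rows, which were left out. Reads of the mimic library were recovered from its deposited TPM by each gene's factor in the other libraries, and 14429 of 14429 came out whole within 0.01. For 588 genes no factor could be had.

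Ratios are of deposited TPM between libraries, with exact Clopper-Pearson 95% intervals on the reads, for the 9540 genes whose reads averaged 10 or more per library. A call is a ratio above 2 or below 0.5, or an interval that leaves out 1. A library at 0 reads was set to 3 reads. Sums carry exact Poisson intervals, and their ratios are in RPM. Intervals cover counting error only, since each condition had 1 library. PCR reads without molecular identifiers are not independent molecules, so the intervals can be too narrow even for counting error. A single gene of the wider pathway lists is counted in its list but its values are left out here. The members and lists were chosen with earlier results of these data known. Every member is accounted for; pathway genes are named when past 2-fold, as receptors or kinases, or singled out after their values were seen when few, and markers by most reads. Promoters and miRNAs are from RefSeq, gene positions and 3′ UTRs from GENCODE M21. Tools were Python 3.11.15, scipy 1.17.1, R 4.3.3, edgeR 4.0.16 (TMM factors) and DESeq2 1.42.0 (size factors), with the intervals tested on simulated data.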

Additional observations from a re-analysis of the deposited data

How the results depend on the processing

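RPM, edgeR TMM and DESeq2 size factors in place of TPM left all 234 single-gene ratios within their intervals and moved the median of all genes by at most 0.04 on the log2 scale. Of 81 alternative values of medians and counts, 61 held, 18 moved and 2 turned. Without the filter on low reads (39 members), the numbers above and below the fold were 11 and 1 for Cart-miR-23clus KO, 4 and 8 for miR-26a KO, and 4 and 6 with the mimic against miR-26a KO. Gbp3 is counted among these 6 only because its 0 reads in miR-26a KO were set to 3. With the mimic it had 1 read, so its reads were in fact higher there. With a mean of at least 50 reads (10 members), the number above was 1 for Cart-miR-23clus KO, with 0 above and 1 below for miR-26a KO, and 0 and 0 with the mimic, where the median log2 ratio turned to -0.01. The median for Cart-miR-23clus KO was then 0.24, beside 0.43 with all measured members. With genes left out that pass the minimum only through their highest library (23 members, chosen after seeing the data), that median was 0.39, and the number above with the mimic was 0. At a fold of 1.5, the number above was 7 for Cart-miR-23clus KO, 2 for miR-26a KO, where 7 lay below, and 2 with the mimic, where 2 lay below. Shares of all genes were not worked out without the filter, at 50 reads or at a fold of 1.5. The counts under these settings therefore cannot be set against the other genes. Set over miR-26a KO, Cart-miR-23clus KO had 6 above. Set over wild type, the mimic library had 0 above and a median of -0.26. The number of members tested also changed with the filter, and the cause of the changes was not tested here.

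No paired analysis was possible because there was a single library for every condition.

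With 1 library per condition, differences between cultures are unknown, and leaving out a replicate was not an option. At 1328042 to 1498579 reads, 13 of 39 members were too low for single ratios. Macrophage, osteoblast and chondrocyte markers differed between the libraries.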
